A study of Homo sapiens with 2 samples.

Results

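The genes described here are 36 enzymes and enzyme subunits of serine synthesis, folate and methionine metabolism, transsulfuration, glycine cleavage and the synthesis of asparagine, arginine, glutamine, glutamate, alanine and proline. They were selected by symbol, with no threshold on their values, from a list drawn up when earlier results of these data were known, and all 36 were found among the 25343 rows of the deposited table. The comparison is between C4-2B Con and C4-2B ENZR, both sublines of C4-2B, a castration-resistant derivative of the human prostate cancer line LNCaP. Con is sensitive to the antiandrogen enzalutamide and was kept in serum-containing medium with DMSO, in parallel with ENZR, which is resistant and was kept in the same medium with 20 µM enzalutamide. The label gives no concentration or length of DMSO treatment, and ENZR was cultured with the drug present, so resistance and exposure to the drug cannot be told apart. Each line gave 1 library. The suffix "shC", carried by both titles, is left undefined. No group has a replicate, so a difference below is one between 2 libraries, whatever its counting error, and how far cultures of one line vary was not measured. In RNA from whole cultures, fewer expressing cells and less RNA per cell cannot be told apart.

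Serine is made from a glycolytic intermediate in a short series of steps, by PHGDH, PSAT1 and PSPH. Serine hydroxymethyltransferases pass a carbon of serine to folate, giving glycine, and the folate enzymes of the cytosol and the mitochondrion carry that carbon to thymidylate, purines and methionine. The methionine cycle makes S-adenosylmethionine, the methyl donor of the cell, and its homocysteine either returns to methionine or is drained through transsulfuration to cysteine. Many genes of these pathways, ASNS among them, are known targets of ATF4, the transcription factor of the amino acid response, and GNMT is known in prostate cells as an androgen-induced gene.

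The libraries held 21024484 reads in genes for Con and 23479051 for ENZR. Levels are given in CPM, reads scaled to a common total after the authors' TMM scaling, and all 36 genes reached a mean of 1 CPM or more, as did 13803 genes in all. Prostate epithelial markers were present in both libraries, with the 8 listed genes summing to 3799 CPM in Con and 3097 CPM in ENZR, although KLK3, the prostate-specific antigen gene, was at 1428 CPM in Con and only 3.72 CPM in ENZR. Markers of fibroblasts summed to 18.4 CPM and 45.8 CPM, of endothelium to 10.5 CPM and 4.57 CPM, and of leukocytes to 18.1 CPM and 10.3 CPM. Most of each sum came from a single gene. These were COL1A1 (18.1 CPM in Con and 44.4 CPM in ENZR), VWF (8.92 CPM and 2.91 CPM) and CD68 (15.7 CPM and 9.87 CPM). COL1A2, CDH5 and CD3E had 0 reads in both. The part of these other markers in the results was not tested. ATF4 was at 548 CPM in Con against 431 CPM in ENZR.

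Most of the 36 genes were modestly lower in ENZR, and a few stood far from the rest in both directions. The log2 ratio of ENZR over Con, computed after adding 1 CPM to each value, was below 0 for 25 genes and above 0 for 11, with a median of -0.17. Over all 13803 genes the median was -0.01 and 50.5% were below 0. By at least 2-fold on that scale, 1 of the 36 was higher (6.69% of all genes were) and 2 were lower (4.64% of all genes), so shares of 2.78% and 5.56% among the members lay near or under the background. At 1.5-fold, 3 genes were higher, a share of 8.33% beside 13.6% of all genes, and 9 were lower, a share of 25% beside 12.9%. With the TMM scaling undone the median of all genes moved to 0.10, and 21 of the 36 members were below 0 beside 40.6% of all genes.

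Each plain CPM ratio has an exact 95% binomial interval from the read counts, called the counting interval, which covers counting error only. It lay below 1 for 20 members (36.6% of all genes) and above 1 for 6 (34.6% of all genes), and it held 1 for 10. Part of this tilt was shared by other abundant genes. With the genes divided at a mean of 100 CPM, a limit set after the values were seen, 15 of the 19 members at or above it had a log2 ratio below 0, 78.9%, as did 62.5% of the 2419 genes of that abundance. Among the 17 members under it the count was 10, or 58.8%, beside 48.0% of the 11384 genes of that abundance. Counting intervals are narrower for genes with more reads, so their calls also depend on abundance. At or above the limit the interval lay below 1 for 15 members and above 1 for 2, beside 1326 and 732 of the 2419 genes. Under it the counts were 5 and 4 members, beside 3719 and 4048 of the 11384 genes.

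**Figure D1:**
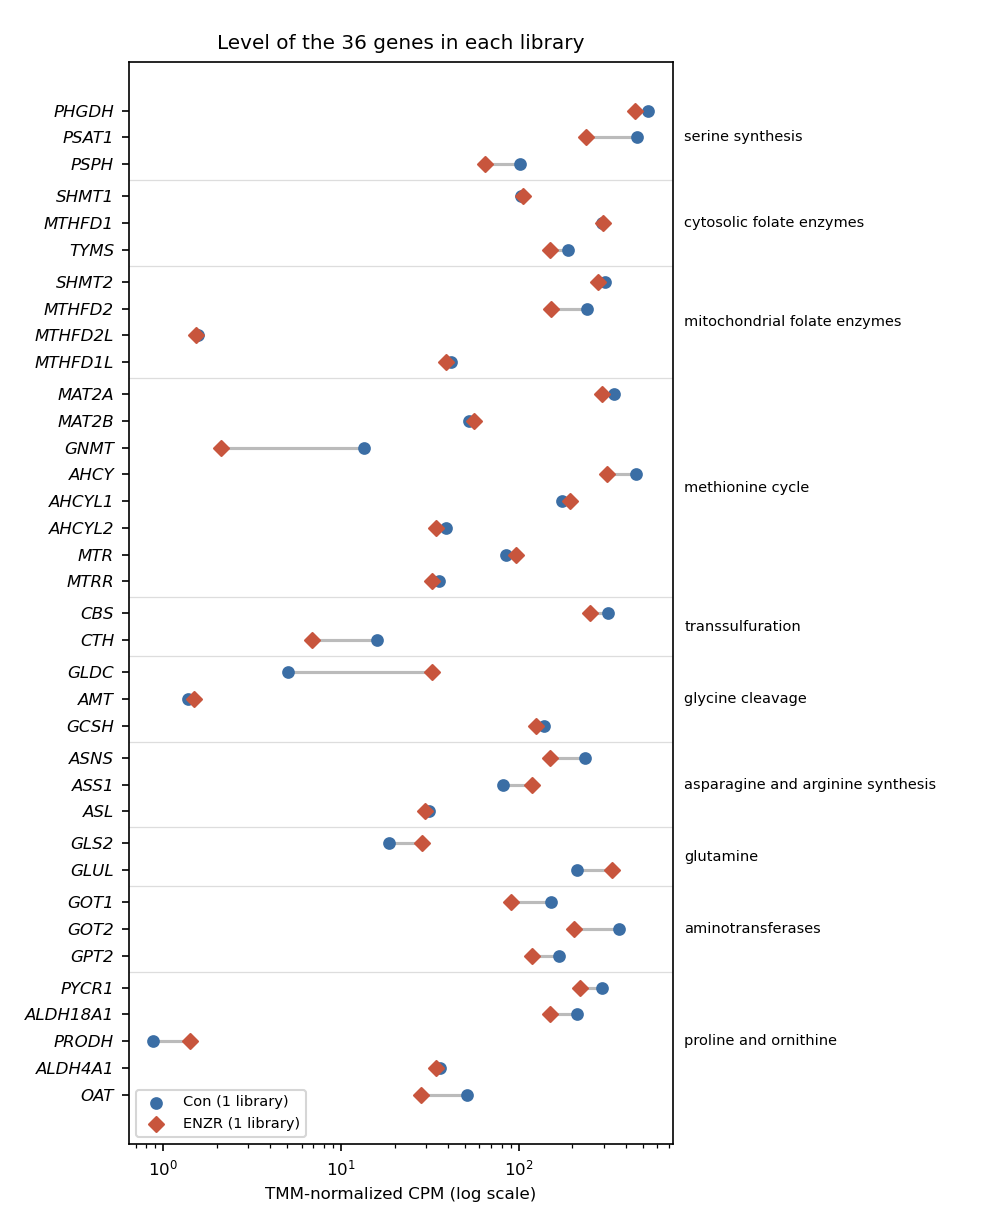
Level of each of the 36 genes in TMM-normalized CPM (log axis), grouped by role, with circles for the Con library and diamonds for the ENZR library. The longest lines join the 2 values of GNMT (13.5 CPM and 2.1 CPM) and GLDC (5.05 CPM and 32.4 CPM).

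**Figure D2:**
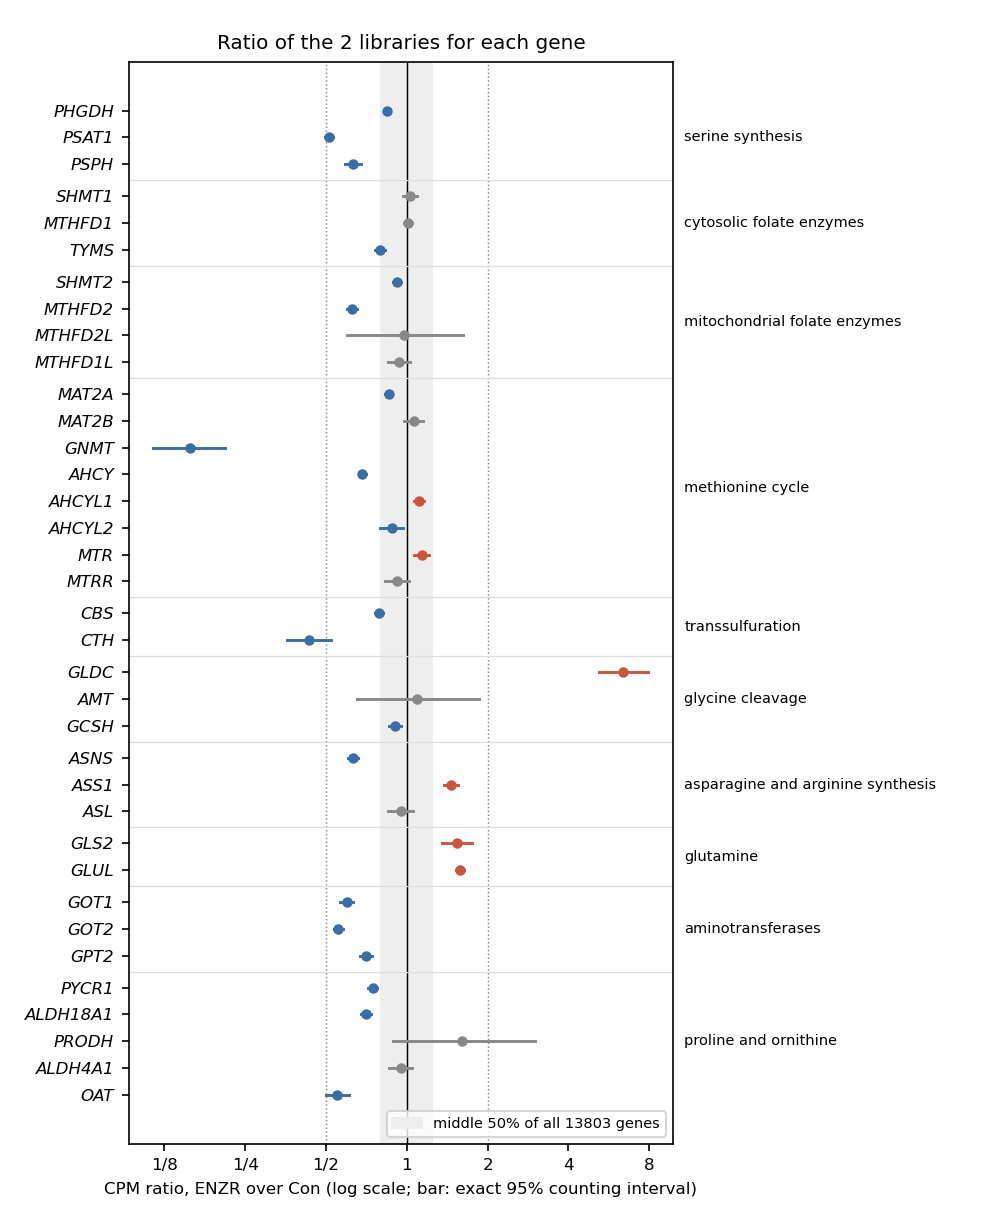
Plain CPM ratio of ENZR over Con for each gene (log axis) with its exact 95% counting interval, in blue where the interval lies below 1, red where it lies above 1 and grey where it holds 1. The shaded band is the middle 50% of the log2 ratios of all genes, and dotted lines mark 2-fold. The serine, aminotransferase and proline synthesis genes lie left of 1, while GLUL, GLS2 and ASS1 lie right of it.

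**Figure D3:**
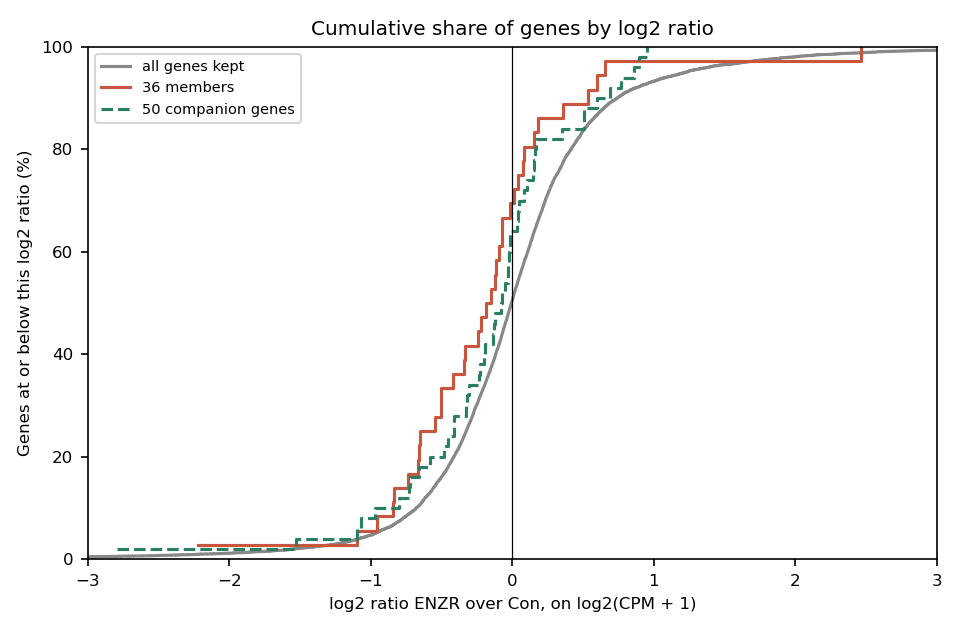
Cumulative share of genes (vertical axis, %) by log2 ratio of ENZR over Con on log2(CPM + 1), for all 13803 genes, the 36 members and the 50 companion genes of the same pathways. The members' curve passes 0 at 69.4% and that of all genes at 50.5%.

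All 3 genes of serine synthesis were lower in ENZR, to unequal extents. PSAT1, the aminotransferase of the second step, was at 464 CPM in Con against 238 CPM in ENZR, 1.95-fold lower (1.89 to 2.01 by the counting interval). PSPH, the phosphatase that releases serine, was at 102 CPM and 64.1 CPM, 1.58-fold lower (1.48 to 1.69). PHGDH, which commits the glycolytic intermediate to serine, was at 536 CPM and 453 CPM, only 1.18-fold lower (1.15 to 1.21). PSAT1 and PHGDH stood at nearly the same level per length of transcript in Con, 212 and 207 CPM per kb, and apart in ENZR, at 109 and 175 CPM per kb. The ratio of PHGDH to PSAT1 reads was thereby 1.65 times as large in ENZR as in Con (1.58 to 1.72). This contrast depended on the neighbourhood, since the nearest genes had a median log2 ratio of 0.28 around PHGDH on chromosome 1 and -0.37 around PSAT1 on chromosome 9. With these medians subtracted, PHGDH was at -0.52, PSAT1 at -0.59 and PSPH at -0.75, and the shift between PHGDH and PSAT1 was 1.05 times.

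Of the cytosolic folate enzymes, MTHFD1 and SHMT1 were nearly level between the libraries and TYMS was lower in ENZR. MTHFD1, the trifunctional enzyme that interconverts one-carbon forms of folate, was at 294 CPM in Con against 296 CPM in ENZR, and SHMT1, the cytosolic serine hydroxymethyltransferase, at 103 CPM and 106 CPM. Both counting intervals held 1, with bounds of 0.972 to 1.04 and 0.970 to 1.09. TYMS, which makes thymidylate from a folate-borne carbon, was at 189 CPM and 149.6 CPM, 1.26-fold lower (1.2 to 1.32). The genes around TYMS on chromosome 18 were also lower, with a median log2 ratio of -0.41 over its 20 nearest measured genes, beside -0.33 for TYMS itself, and with that median subtracted TYMS was at 0.07 and SHMT1, by its own neighbours, at -0.28.

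Of the mitochondrial folate enzymes, only MTHFD2 passed 1.5-fold. MTHFD2, the dehydrogenase and cyclohydrolase often raised in tumours, was at 242 CPM in Con against 152 CPM in ENZR, 1.59-fold lower (1.53 to 1.66). SHMT2, which starts the mitochondrial branch, was at 304 CPM and 279 CPM, 1.09-fold lower (1.05 to 1.13). MTHFD1L, which releases formate, was at 41.8 CPM and 39.1 CPM, and its ratio had an interval bounded by 0.852 and 1.03. MTHFD2L, the paralog of MTHFD2, had just 32 reads in one library and 38 in the other, and the interval of its ratio, 0.596 to 1.62, takes in a 1.5-fold difference in either direction. Per length of transcript MTHFD2 exceeded MTHFD2L in both libraries, at 54.3 and 34.1 CPM per kb beside 0.682 and 0.668 CPM per kb.

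The methionine cycle held the lowest log2 ratio of the 36 genes. GNMT, which uses S-adenosylmethionine to methylate glycine and so disposes of surplus methyl groups, was at 13.5 CPM in Con (275 reads) against 2.1 CPM in ENZR (52 reads), 6.41-fold lower (4.75 to 8.79). Only 0.935% of all genes had a lower log2 ratio than its -2.22. Its neighbours had a median of -0.37. PEX6, a peroxisome biogenesis gene whose exons overlap GNMT on the opposite strand, was also lower, at 27.6 CPM and 9.14 CPM, and since the use of strand in counting is not given in the sources used here, reads of the overlap cannot be assigned with certainty.

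The other methionine cycle genes spanned a much narrower range. AHCY, which clears S-adenosylhomocysteine, was at 457 CPM in Con against 312 CPM in ENZR, 1.46-fold lower (1.42 to 1.51). Its relatives AHCYL1 and AHCYL2, which are known as regulatory proteins without that activity, had ratios closer to 1. AHCYL1 was at 175 CPM and 194 CPM, a ratio of 1.11 (1.07 to 1.16), and AHCYL2 at 38.8 CPM and 34.0 CPM, a ratio of 0.878 (0.795 to 0.968). The AHCYL1 to AHCY read ratio was 1.63 times as large in ENZR (1.54 to 1.72).

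MAT2A, the catalytic subunit that makes S-adenosylmethionine, was at 342 CPM and 292 CPM, 1.17-fold lower (1.13 to 1.21). Its regulatory partner MAT2B was at 52.7 CPM and 55.8 CPM, a ratio of 1.06 whose interval held 1 (0.978 to 1.15). MTR, which remethylates homocysteine with a folate-borne methyl group, was at 84.8 CPM and 96.2 CPM, a ratio of 1.14 (1.07 to 1.21). MTRR, which keeps MTR active, was at 35.4 CPM and 32.6 CPM, a ratio of 0.920 (0.831 to 1.02). The sign of small log2 ratios such as these depends on the scaling or the neighbourhood. With the median of the neighbours subtracted, MTR was at -0.13, AHCYL1 at -0.08 and MTRR at 0.41.

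Both transsulfuration genes were lower. CTH, which splits cystathionine to cysteine, was at 15.9 CPM in Con against 6.87 CPM in ENZR, 2.31-fold lower (1.91 to 2.80). CBS, which condenses homocysteine with serine, was at 317 CPM and 250 CPM, 1.27-fold lower (1.23 to 1.32). The excess of CBS over CTH in reads was 20.0-fold in Con and 36.4-fold in ENZR, a shift of 1.82 times (1.5 to 2.21). The 2-fold call of CTH was lost with the TMM scaling undone, where its log2 ratio was -0.99, with the 10 most abundant genes left out, just short of 2-fold, and with a pseudocount of 5 CPM (-0.81).

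Glycine cleavage, the mitochondrial route that breaks glycine into carbon dioxide, ammonia and a folate-borne carbon, held the highest log2 ratio. GLDC, the decarboxylase of the complex, was at 5.05 CPM in Con (103 reads) against 32.4 CPM in ENZR (800 reads), 6.41-fold higher (5.22 to 7.95). Its log2 ratio of 2.46 exceeded that of 98.9% of all genes, while its neighbours had a median of 0.17. GLDC differed in this from both partner subunits listed. GCSH, the lipoyl carrier, was at 139 CPM and 125 CPM, 1.11-fold lower (1.05 to 1.17) but at 0.33 on the log2 scale with its neighbours' median of -0.48 subtracted, and AMT, the aminomethyltransferase, rested on 28 reads and 37 reads, too few to bound its ratio more closely than 0.650 to 1.85. Relative to GCSH reads, GLDC reads were 7.11 times as frequent in ENZR as in Con (5.75 to 8.88), and relative to AMT reads 5.88 times (3.31 to 10.3). Per length of transcript GLDC remained below GCSH in ENZR, at 8.30 beside 78.3 CPM per kb.

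The synthesis of asparagine and of arginine precursors differed in direction between ASNS and ASS1. ASNS, asparagine synthetase, was at 237 CPM in Con against 149 CPM in ENZR, 1.59-fold lower (1.52 to 1.66). ASS1, which joins citrulline and aspartate, was at 81.1 CPM and 118 CPM, 1.46-fold higher (1.37 to 1.55). ASL, which splits the product into arginine and fumarate, was at 31.2 CPM and 29.6 CPM, and the interval of its ratio held 1 (0.852 to 1.06). The ASS1 to ASL read ratio was thus 2.60 in Con and 3.99 in ENZR, 1.53 times as large (1.36 to 1.74). The genes around ASS1 had a median log2 ratio of -0.11, against 0.54 for ASS1.

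Promoter windows were searched for the letters TGATGNAA on either strand, the core of the element that ATF4 binds with a C/EBP partner. RefSeq windows of build GRCh38.p14, from 250 bases before to 50 after a start site, were available for 30 of the 36 genes, 51 windows in all counting alternative starts. The letters were in windows of 4 of these genes (ASNS, GOT1, MTHFD1L and AHCYL2), or 13.3% of the 30, beside 4.46% of the 27305 genes with a window. The E-box CACGTG, bound by MYC and MAX, was in windows of 4 members (MTHFD1, MTHFD1L, ALDH18A1 and ASS1), or 13.3%, beside 8.77% of genes. By window the shares were 11.8% of member windows for either motif, where 3 overlapping windows of MTHFD1L count the same letters, beside 3.62% and 7.26% of all 35116 windows. An androgen response element, taken as AGAACA, 3 free bases and TGTTCT, was in the window of 0 members and of 1 of all windows. So strict a form is too rare in these windows for its absence from the members to tell anything about them. The 4 matches are shown as 30 bases of RefSeq sequence, 5′ to 3′ on the strand of the gene, with the match in capitals, so that those of ASNS and GOT1, which were over 1.5-fold lower, can be set beside those of MTHFD1L and AHCYL2, which were not. The ASNS bases are chr7:97872458-97872487 on the minus strand, with the match 68 to 61 bases before the start site, and some GENCODE transcripts of ASNS start farther upstream and include them in the first exon. Those of GOT1 are chr10:99430804-99430833 on the minus strand, with the match on the opposite strand 198 to 191 bases before the start site. Those of MTHFD1L are chr6:150866346-150866375 on the plus strand, with the match 129 to 122 or 90 to 83 bases before alternative start sites and 24 to 31 bases after another. Those of AHCYL2 are chr7:129368232-129368261 on the plus strand, with the match on the opposite strand 137 to 130 bases before an alternative start site.
ASNS: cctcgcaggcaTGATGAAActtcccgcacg
GOT1: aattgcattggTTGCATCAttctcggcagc
MTHFD1L: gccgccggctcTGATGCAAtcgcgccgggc
AHCYL2: ggtgcagcactTTGCATCAgctctgatttt

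MTHFD1L and AHCYL2 had log2 ratios of -0.09 and -0.18, nearer to 0 than those of ASNS (-0.66) and GOT1 (-0.74). PSAT1, which was not among the 4 members with a match, had -0.96. Whether PSAT1 was among the 30 members with a window is not stated here. Sites of other letters or outside the windows were not searched, and a part of ATF4 in these ratios was not tested. A match in letters is a description of the window and no measurement of binding.

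Both glutamine genes were higher in ENZR, and by similar ratios. GLUL, glutamine synthetase, was at 213 CPM in Con against 336 CPM in ENZR, 1.58-fold higher (1.52 to 1.64). GLS2, the glutaminase first described in liver, was at 18.6 CPM and 28.6 CPM, 1.54-fold higher (1.36 to 1.75). The GLUL to GLS2 read ratio was 11.5 in Con and 11.8 in ENZR, and the interval of its shift held 1 (0.898 to 1.17). GLUL lies on chromosome 1 among genes with a median log2 ratio of 0.28, and with this subtracted its log2 ratio was 0.37 and no longer past 1.5-fold. ASNS, which uses glutamine as its nitrogen donor, had 1.11 reads for each GLUL read in Con and 0.443 in ENZR.

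The 3 aminotransferases grouped here, which move amino groups to and from glutamate, were lower. So were PSAT1 and OAT, aminotransferases described with serine and proline synthesis. GOT2, the mitochondrial aspartate aminotransferase, was at 368 CPM in Con against 205 CPM in ENZR, 1.80-fold lower (1.73 to 1.86), and GOT1, its cytosolic counterpart, at 151 CPM and 90.0 CPM, 1.68-fold lower (1.59 to 1.77). The GOT2 to GOT1 read ratio was 2.44 in Con and 2.27 in ENZR, a shift of 0.932 times (0.873 to 0.996). GPT2, the mitochondrial alanine aminotransferase, was at 169 CPM and 119 CPM, 1.42-fold lower (1.35 to 1.49). GOT2 and GPT2 lie on chromosome 16 among genes with medians of -0.38 and -0.30, and with its neighbours subtracted GOT2 was at -0.47, no longer past 1.5-fold. GOT1 on chromosome 10 had neighbours with a median of 0.23, and was at -0.97 with this subtracted. Aminotransferases of glutamate outside the members, named after their values were seen, differed in direction. BCAT1 and BCAT2 of branched-chain amino acids were higher in ENZR. BCAT1 was at 30.5 CPM and 49.8 CPM, a ratio of 1.63 (1.48 to 1.80), and BCAT2 at 49.1 CPM and 54.9 CPM, a ratio of 1.12 (1.03 to 1.21). The genes around BCAT1 had a median log2 ratio of 0.52, beside 0.69 for BCAT1 itself. With the neighbours' medians subtracted, BCAT1 was at 0.17 and BCAT2 at 0.15. AADAT, the aminoadipate aminotransferase, was lower, at 128 CPM in Con against 47.9 CPM in ENZR. GPT, the cytosolic alanine aminotransferase, was lower too, at 12.2 CPM and 3.60 CPM.

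The genes that make proline were lower, while the intervals of those that break it down held 1. ALDH18A1, which turns glutamate into the precursor of proline and ornithine, was at 212 CPM in Con against 149 CPM in ENZR, 1.42-fold lower (1.36 to 1.48). PYCR1, the mitochondrial reductase of the last step, was at 296 CPM and 220.3 CPM, 1.34-fold lower (1.29 to 1.39). ALDH4A1, which oxidizes the intermediate back to glutamate, was at 36.2 CPM and 34.3 CPM, and the interval of its ratio held 1 (0.858 to 1.05). PRODH, proline dehydrogenase, rested on 18 reads and 35 reads, a ratio of 1.60 with an interval of 0.885 to 3.01. OAT, which links ornithine to the same intermediate, was at 51.3 CPM and 28.3 CPM, 1.81-fold lower (1.65 to 2.00), among neighbours with a median of -0.02. The ALDH18A1 to ALDH4A1 read ratio went from 5.86 to 4.35, a shift of 0.742 times (0.665 to 0.828).

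Within the 20 pairs of member genes compared, scaling and transcript length cancel, and the interval of the shift left out 1 for 17 pairs and held it for 3. The pair of GLDC and GCSH moved most upward and that of GNMT and MAT2A most downward, the latter to 0.182 times (0.133 to 0.247). MTHFD2 reads relative to MTHFD1 reads went from 0.823 to 0.513, a shift of 0.623 times (0.590 to 0.659), whereas SHMT2 relative to SHMT1 shifted by 0.892 times (0.833 to 0.954). PSPH relative to PHGDH shifted by 0.747 times (0.695 to 0.802), MAT2B relative to MAT2A by 1.24 times (1.14 to 1.35), MTR relative to MTRR by 1.23 times (1.09 to 1.39) and PYCR1 relative to PRODH by 0.464 times (0.247 to 0.844). Neighbourhoods do not cancel within a pair. With the medians of the neighbours subtracted on the log2(CPM + 1) scale, an alternative chosen after seeing the data, 3 pairs turned direction, to 1.16 times for SHMT2 over SHMT1, 1.41 times for GOT2 over GOT1 and 0.685 times for MTR over MTRR. MAT2B over MAT2A moved to 1.96 times, GLDC over GCSH to 3.90 times and GNMT over MAT2A to 0.389 times.

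**Figure D4:**
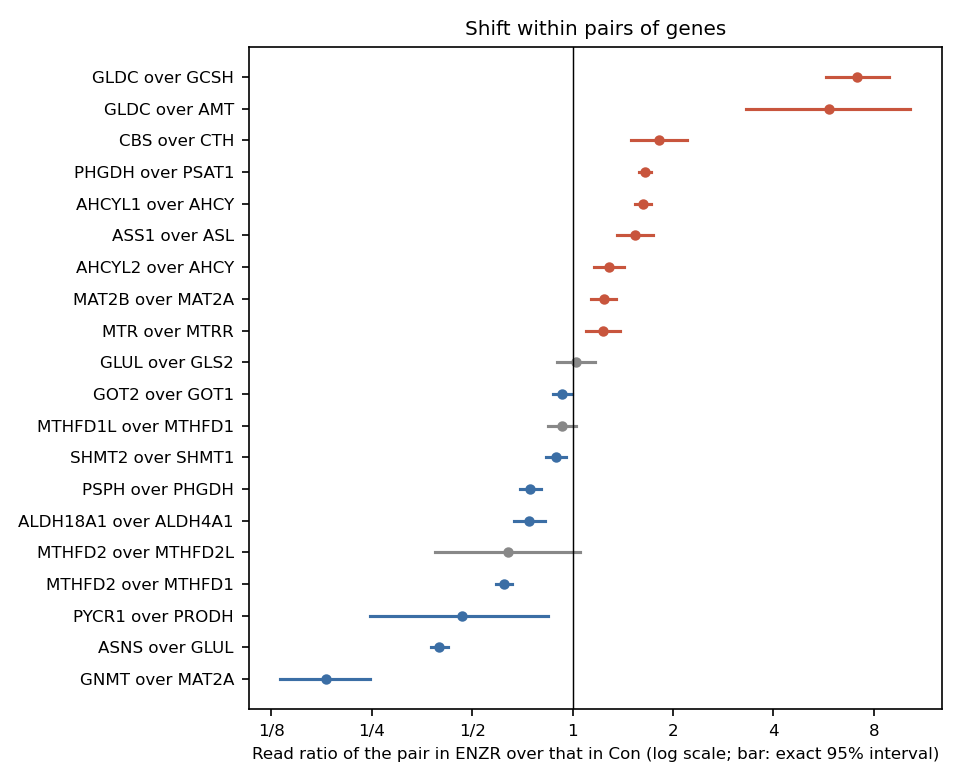
For 20 pairs of genes, the read ratio of the first gene to the second in ENZR divided by that in Con (log axis), with its exact 95% conditional interval, in red where the interval lies above 1, blue where it lies below 1 and grey where it holds 1. The GLDC pairs lie farthest to the right, and GNMT over MAT2A and ASNS over GLUL farthest to the left.

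Another 69 genes of the same pathways, folate carriers and interconverting enzymes, the choline and sulfur branches, and other enzymes of glutamate, arginine and proline, were all in the table, and 50 had a mean of 1 CPM or more. Past 2-fold, 0 of these were higher in ENZR, beside 6.69% of all genes, and 4 or 8% were lower, beside 4.64%. Their median log2 ratio was -0.08, with 32 or 64% below 0 beside 50.5% of all genes, and it turned to 0.0372 with the TMM scaling undone. ASRGL1, an asparaginase, was at 25 CPM in Con against 2.75 CPM in ENZR, 9.09-fold lower (7.04 to 11.9). GPT, the cytosolic alanine aminotransferase, was 3.40-fold lower (2.66 to 4.38), and GPT2 was lower as well. GAMT, which makes creatine with a methyl group of S-adenosylmethionine, was at 130.4 CPM and 61.5 CPM, 2.12-fold lower (1.99 to 2.26), and its neighbours had a median of -0.64.

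The other companions listed by name or role had smaller differences. ALDH1L2, the mitochondrial formyl-folate dehydrogenase next to MTHFD2 in the pathway, was at 37.8 CPM and 22.4 CPM, 1.69-fold lower (1.51 to 1.88). SLC25A32, the mitochondrial folate carrier, was at 46.9 CPM and 42.9 CPM, a ratio of 0.914 (0.837 to 0.999). The 5 purine synthesis genes listed, which receive folate-borne carbons or act beside those steps, had log2 ratios from -0.32 for ATIC to -0.02 for GART.

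The values of some genes rest on how reads were assigned. PSPH, ASS1, GLUL and GCSH are known to have closely similar pseudogenes or copies, and CBS a near-identical copy in later genome builds. In the GENCODE v29 basic annotation, exons of 18 of the 36 genes overlapped those of another gene. Among those with an opposite-strand partner in the table, SLC4A5, which overlaps MTHFD2, was at 23.4 CPM in Con against 8.78 CPM in ENZR. SPRYD4, which overlaps GLS2, went the other way from it, at 68.1 CPM and 39.0 CPM. ENOSF1, which overlaps TYMS, was at 44.7 CPM and 24.0 CPM.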

How the data were processed

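Single-end sequencing of total RNA on an Illumina platform gave 2 libraries, as the labels' protocols state. The table deposited by the authors holds a signal value for each gene and library, which they call TMM-normalized CPM. Bowtie2 2.1.0, RSEM 1.2.15, edgeR and build hg19 are named in the submitters' processing notes, with no role for any of them. The annotation and the use of strand were not given in the sources used here. There were 0 unmapped value columns. In each library every value was a whole multiple of 1 step, 0.0490 CPM in Con and 0.0404 CPM in ENZR, within a tolerance of 0.01 reads for 100% of values. Reads were recovered on that basis, and they may be RSEM estimates that were rounded. A count model such as edgeR's cannot estimate spread from 1 library a group, so none was fitted and p-values are absent.

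Log2 ratios of ENZR over Con were taken after adding 1 CPM, for genes whose mean reached 1 CPM. Since the added value understates differences of low genes, folds in the text are plain ratios, while counts of genes past a fold are on the log2 scale. Ratios have exact 95% Clopper-Pearson intervals, and pairs have exact conditional ones (scipy 1.17.1, pandas 2.3.3, numpy 2.4.6). They cover counting error only and compare libraries, not conditions. Neighbours are the 20 nearest measured genes in RefSeq order (GRCh38.p14). CPM per kb used the longest APPRIS principal transcript of GENCODE v29, which may not be the isoform expressed. All 36 members are described. Of the companion genes, those past 2-fold whose mean reached 5 CPM are named, and some listed ones whatever their values, except for a few that are not reported here. The members, lists and pairs were chosen with earlier results of these data known. Scripts were tested on simulated data. Alternatives were another scaling, pseudocount or filter, totals without the most abundant genes, and subtraction of the neighbours' median. Protein identities were not computed.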

Additional observations from a re-analysis of the deposited data

How the results depend on the processing

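With 1 library per group no replicate could be left out. No paired analysis was possible because each group has 1 sample. Undoing the TMM scaling moved the median log2 ratio of all genes from -0.01 to 0.10 and that of the 36 members from -0.17 to -0.05, so the members' median stayed below that of all genes by 0.16 and 0.15. The median of the companion genes crossed 0 with the TMM scaling undone (0.0372) and without the 10 most abundant genes (0.0356). The number of members at least 2-fold lower was 1 and not 2 with a pseudocount of 5 CPM, with the TMM scaling undone and without the 10 most abundant genes, CTH being the gene lost. Companion genes at least 2-fold higher numbered 1 with a pseudocount of 0.25 CPM and 2 with the TMM scaling undone or without the 10 most abundant genes, and those at least 2-fold lower numbered 2 under the last 2 settings and with the neighbours' median subtracted. Members at least 1.5-fold lower numbered 6 with the TMM scaling undone or without the 10 most abundant genes, PSPH, MTHFD2 and ASNS falling just short, where 9.54% and 9.65% of all genes were called. Those at least 1.5-fold higher numbered 4 under these settings and upper quartile scaling, ASS1 being gained, and 2 with a pseudocount of 5 CPM, GLS2 being lost. Of the 12 members past 1.5-fold, 6 were past it under all settings that kept them, and 0 changed sign. Among all 36, the sign changed for 4 with another scaling (MTHFD1L, MTHFD2L, ASL and ALDH4A1), each with a log2 ratio above -0.10. In the pair of GNMT and MAT2A a pseudocount of 1 CPM gave 0.251. Depth limits MTHFD2L, AMT and PRODH, which had 18 to 38 reads per library. With the medians of the neighbours subtracted, chosen for the pairs after seeing the data, SHMT2 over SHMT1 (1.16), GOT2 over GOT1 (1.41) and MTR over MTRR (0.685) turned direction. The cause was not tested.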
